A study of Drosophila melanogaster with 2 samples.

Results

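The peaks described here are 1081 one-sided promoter peaks of CG10654, a Drosophila melanogaster protein tagged with green fluorescent protein (GFP) and mapped by chromatin immunoprecipitation sequencing (ChIP-seq). Among the peaks that passed the authors' procedure, described below, they were chosen by position alone. The summit of each lay upstream of the nearest annotated transcription start site (TSS), within 500 bp of it, and peaks lying between a pair of TSSs that point away from each other, each within 500 bp, were left out. They made up 26.3% of the 4117 peaks that passed the authors' irreproducible discovery rate (IDR) procedure, a comparison of replicates, and 49.95% of the 2164 IDR peaks with a summit within 500 bp of a TSS. The remaining promoter peaks were 852 divergent peaks, between such a pair of TSSs, and 231 with a summit at or downstream of the nearest TSS. The IDR list held the 4117 pooled candidates of highest signal, down to 99.3, so that passing it means lying above that pooled signal. A further 2958 candidates of the pooled data had the same geometry as the one-sided upstream peaks but did not pass IDR.

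There were 2 biological replicates in 1 group and no contrasting condition. Both are whole embryos of mixed sex, 0 to 24 h old, of the transgenic strain CG10654-GFP, in which the protein carries GFP at its C terminus. The tag was precipitated from sonicated chromatin of 200 to 800 bp with an antibody against GFP. All embryos came from 1 line, the promoter that drives the tagged protein is not given in the sources used here, and whole embryos mix every tissue with a full day of development. The files are peak lists, with 23253 candidates for replicate 1, 30000 for replicate 2 and 27219 for the pooled reads, and the depth in reads is unknown. A signal value is the authors' own value per peak. It has no stated scale. It was used to rank peaks within a list and, as a description only, to set the replicate and pooled lists beside each other. All intervals are 95% Wilson intervals. They are over peaks or genes, not embryos, and reflect counting error alone.

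A promoter is the stretch of DNA around a TSS from which RNA polymerase II starts. In Drosophila many broadly expressed genes carry the DNA replication-related element (DRE), bound by the factor DREF, or motif 1, bound by M1BP, just upstream of the TSS. Many regulated genes instead carry an initiator, a short sequence at the TSS itself that is contacted by the general transcription machinery, with or without an upstream TATA box. A one-sided promoter has a single gene direction, so that each sequence near its peak can be read relative to that gene.

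The sequences at the summits are shown first for the strongest peaks, to let their base composition be seen, and then for peaks that carry the words described below. Each is the Release 6 (dm6) reference sequence of up to 40 bp on either side of the summit, read 5' to 3' along the strand of the gene and cut where an annotated exon begins. Capitals mark matches, on either strand, to ATCGAT (the core of the DRE), TATCGATA (the full DRE, which contains that core), GGTCACAC (the core of motif 1), TATAAA, Ohler motif 7 or CAACACTG. Peaks were taken in order of signal, leaving out 1 chromosome arm and peaks whose summit lies in an exon, and those of a motif also needed the match inside the stretch shown. The 6 strongest peaks that met these conditions were the following.
Ugalt, chrX:2703853-2703915, minus strand: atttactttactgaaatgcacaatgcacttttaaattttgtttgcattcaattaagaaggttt
CG14100, chr3L:19590586-19590666, minus strand: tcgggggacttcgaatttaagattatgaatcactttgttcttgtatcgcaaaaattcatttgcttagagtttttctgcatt
ph-p, chrX:2137306-2137386, minus strand: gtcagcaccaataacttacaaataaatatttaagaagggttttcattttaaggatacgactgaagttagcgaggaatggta
CG18549, chr3R:12449128-12449208, plus strand: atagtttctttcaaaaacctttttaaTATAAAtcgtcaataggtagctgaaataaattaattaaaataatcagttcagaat
CG13921, chr3L:1746751-1746831, plus strand: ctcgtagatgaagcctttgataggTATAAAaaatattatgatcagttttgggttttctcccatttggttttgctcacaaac
Rtnl1, chr2L:4997614-4997694, minus strand: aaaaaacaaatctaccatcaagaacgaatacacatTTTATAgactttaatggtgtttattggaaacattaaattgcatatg
Between 21.0% and 34.6% of the bases of these sequences were G or C. TATAAA or its reverse complement occurred in 3 of the 6, and the DRE core, the motif 1 core, Ohler motif 7 and CAACACTG in 0 of the 6.

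A DRE core is shown at eEF1gamma, which encodes a translation elongation factor subunit, at yps, which encodes a Y-box RNA-binding protein, and at Regnase-1, which encodes a ribonuclease.
eEF1gamma, chr3R:29220101-29220171, plus strand: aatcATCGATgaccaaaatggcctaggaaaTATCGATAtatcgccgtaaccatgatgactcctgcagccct
yps, chr3L:12125151-12125220, minus strand: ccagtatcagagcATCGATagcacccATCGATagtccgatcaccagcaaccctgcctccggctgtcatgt
Regnase-1, chr3R:20036098-20036178, minus strand: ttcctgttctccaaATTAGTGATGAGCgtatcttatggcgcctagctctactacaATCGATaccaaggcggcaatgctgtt
The motif 1 core is shown at Rnp4F, which encodes a splicing factor, and Adsl, which encodes adenylosuccinate lyase of purine synthesis.
Rnp4F, chrX:5322699-5322779, minus strand: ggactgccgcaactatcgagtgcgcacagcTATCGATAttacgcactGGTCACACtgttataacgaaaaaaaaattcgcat
Adsl, chr3R:17021121-17021191, minus strand: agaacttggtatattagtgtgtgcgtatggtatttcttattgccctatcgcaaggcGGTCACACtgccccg
Ohler motif 7 and the word CAACACTG are shown at RpS5a, which encodes a ribosomal protein, at pico, at RpL23A, another ribosomal protein gene, and at Pi3K21B, which encodes the regulatory subunit of phosphatidylinositol 3-kinase.
RpS5a, chrX:17148278-17148358, minus strand: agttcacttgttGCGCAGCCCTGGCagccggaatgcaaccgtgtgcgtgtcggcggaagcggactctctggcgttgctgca
pico, chrX:19848593-19848673, minus strand: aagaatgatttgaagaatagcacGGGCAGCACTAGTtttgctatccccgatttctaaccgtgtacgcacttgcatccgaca
RpL23A, chr3L:1668699-1668779, minus strand: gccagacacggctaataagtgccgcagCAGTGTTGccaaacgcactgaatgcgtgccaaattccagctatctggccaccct
Pi3K21B, chr2L:297794-297874, plus strand: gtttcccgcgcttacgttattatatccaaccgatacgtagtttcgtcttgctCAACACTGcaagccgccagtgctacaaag
The peaks at eEF1gamma and yps each held more than 1 DRE core, the peak at Rnp4F held a full DRE beside the motif 1 core, and the peak at Regnase-1 held a match to Ohler motif 7 beside its DRE core.

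The strongest one-sided peak lay at Ugalt, which encodes a UDP-galactose transporter, on the X chromosome from 2703687 to 2704097 (dm6). Its signal was 1720 in replicate 1, 776 in replicate 2 and 2484 in the pooled data, and its summit lay 23 bp upstream of the TSS. The peak at CG14100 (pooled signal 2364, summit 102 bp upstream) had a signal of 1592 in replicate 1 and 781 in replicate 2. These peaks held ranks 1 and 2 in the replicates, in opposite order.

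Below them came px, a wing vein patterning gene (pooled signal 1944, 1265 in replicate 1 and 680 in replicate 2, 200 bp upstream), and mRpL41, which encodes a mitochondrial ribosomal protein (1809, 1213 and 600, 138 bp upstream). The peak at ph-p, a Polycomb group gene, lay 491 bp upstream of an inner TSS, within an intron of a longer transcript of that gene (1669, 1190 and 502). The next were CG1888 (1228), CG18549 (1156), lncRNA:CR44619 (1094), CG13921 (1059), Rtnl1, which encodes a reticulon of the endoplasmic reticulum (1016), larp, which encodes an RNA-binding protein (1013), and CG31145 (1001). Of these 12 peaks, lncRNA:CR44619 showed the greatest difference in rank between replicates, at 18 in replicate 1 and 50 in replicate 2.

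The lowest signal among the 1081 peaks was 99.3 at crb, which encodes the apical polarity protein Crumbs. This peak had a signal of 62.7 in replicate 1 and no candidate summit within 100 bp in replicate 2. The strongest candidate of the same geometry that did not pass lay at CG3919, with a pooled signal of 99.1. At the 500 bp limit, the outermost summits inside lay 498 bp from CG17896, 494 bp from lola and 492 bp from ITP (signals 652, 241 and 176). Those just outside lay 501 bp from CG5973, 501 bp from CG42571 and 503 bp from CG2201 (signals 216, 131 and 142).

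The first comparison asked whether one-sided peaks were found in both replicates as often as the other promoter peaks. A candidate summit lay within 100 bp in replicate 1 for 1074 of 1081 peaks, in replicate 2 for 1039, and in both for 1032 (95.5%, interval 94.1 to 96.6%). Each peak had a match in at least 1 replicate. The share matched in both was 96.0% for divergent and 94.8% for downstream peaks, and neither difference from the one-sided share passed the test (odds ratios 0.875 and 1.15, 2-sided Fisher's exact test, adjusted p = 0.609 for both). With summits matched within 50 bp the one-sided share lay above the divergent share (odds ratio 1.30, adjusted exact p = 0.0349). The IDR list was derived from the replicates, so these shares are no independent test of the sites.

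The unmatched peak of highest signal lay at by (pooled signal 509, 341 in replicate 1). That at the cyclin gene CycE (282) was matched in replicate 1 only, with a signal of 198. Over the 1032 peaks matched in both, the replicate 1 signal was a median of 1.97 times the replicate 2 signal. Signals of the replicates had a Spearman's rho of 0.816 and, on log2 signal, a Pearson's r of 0.859 across these peaks, which share their libraries and control. Within the weakest of 4 bands of pooled signal rho was -0.55 (r = -0.43, 251 peaks), and within the strongest 0.7996 (r = 0.874, 264 peaks). Pooled signal, which defines the bands and the IDR list, was a median of 1.00 times the sum of the replicates' signals. Matched summits lay a median of 20 bp apart and were upstream of the TSS in both replicates at 1012 of 1032 peaks (98.1%).

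**Figure D1:**
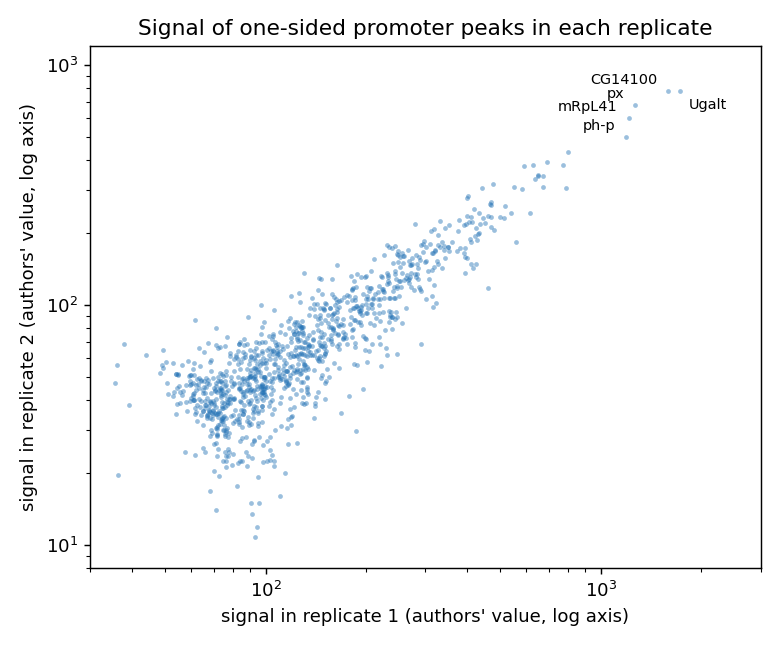
Signal of the 1032 one-sided promoter peaks matched in both replicates, with replicate 1 on the horizontal and replicate 2 on the vertical log axis, 1 point per peak. The 5 peaks of highest pooled signal are named and stand at the upper right in both replicates, with Ugalt at 1720 and 776.

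Pooled signal was compared with that of the other promoter peaks by the share above the median of all IDR peaks, 164. Of the one-sided peaks 53.0% lay above it, against 57.2% of divergent peaks (odds ratio 0.845) and 47.2% of downstream peaks (odds ratio 1.26). Neither difference passed the test (2-sided Fisher's exact test, adjusted p = 0.111 for both). Counting only TSSs of protein-coding genes, the difference from downstream peaks passed (odds ratio 1.497, adjusted exact p = 0.0235). With a promoter window of 250 bp the difference from divergent peaks did not pass (odds ratio 0.807, adjusted exact p = 0.0687), and with the divergent limit also at 250 bp, which turns divergent peaks into one-sided ones, it did (0.609, 1.21e-05).

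Summits lay a median of 173 bp upstream of the TSS, with quartiles of 94.0 and 280 bp. Of the 1081, 295 (27.3%) lay within 100 bp, 560 (51.8%) from there to 300 bp and 226 (20.9%) farther out. The bins of 50 bp held most peaks from 51 to 100 bp (181), and each bin farther out held fewer, down to 41 in the outermost. The candidates outside the IDR list lay at nearly the same median of 172 bp. The bounds of 0 and 500 bp are set by the choice of peaks.

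Peaks of higher signal had larger median distances from the TSS. The peaks were divided by pooled signal into 4 bands of 270 or 271 peaks each. The median distance was 141 bp in the weakest band, 158 bp in the next, then 173 bp, and 195 bp in the strongest. Of the strongest band 12 peaks lay within 50 bp of the TSS, against 45 of the weakest. Ranked by replicate 1 alone, with its own summits, the weakest and strongest bands had medians of 148 and 192 bp, and by replicate 2 alone 144 and 195 bp. Across all 1081 peaks the relation was weak (Spearman's rho 0.125, a description across peaks of the same libraries). Among the candidates outside the IDR list the order was the other way, with 196 bp in the weakest band and 140 bp in the strongest. Among the one-sided peaks the strongest band spanned quartiles of 133 to 289 bp and the weakest 68.0 to 272 bp, which overlap.

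**Figure D2:**
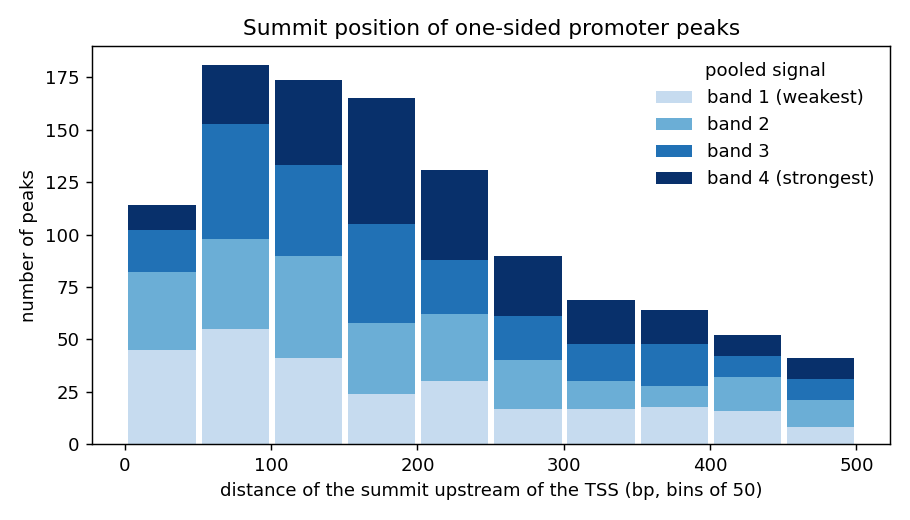
Number of one-sided promoter peaks by the distance of the summit upstream of the TSS, in bins of 50 bp, with bars split by band of pooled signal. The strongest band is at its most frequent from 151 to 200 bp (60 peaks) and the weakest from 51 to 100 bp (55 peaks).

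The annotation under the summits was mostly intergenic. Of the 1081 summits, 637 (58.9%) lay in no annotated gene. Another 237 (21.9%) lay in an intron of the same gene, upstream of an inner TSS, and 110 (10.2%) in an intron of another gene. Exons of another gene held 51 and exons of the same gene 46, and 1 summit lay in a coding exon. Among the candidates outside the IDR list, 81 of 2958 summits (2.74%) lay in coding exons and 304 (10.3%) in exons of another gene, a difference that was not tested.

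Of the 637 intergenic peaks, 433 (68.0%) had a neighbour upstream in the same direction, at a median of 405 bp from the summit, and 204 a neighbour facing away, at a median of 1397 bp. The choice of peaks leaves out pairs of the second kind under 500 bp. The outermost TSS of the gene was the nearest for 759 peaks (70.2%), and 575 peaks lay at genes with several TSSs. Peaks in an intron of the same gene had a median signal of 185 and a median distance of 232 bp, and intergenic peaks 164 and 148 bp.

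The 1081 peaks belonged to 1004 genes, so they are not independent of each other. These were 5.53% of the 18164 annotated genes. At 64 genes 2 or more peaks were found, and 68 peaks shared their nearest TSS with another. The genes dnc, which encodes a cyclic AMP phosphodiesterase, and Rtnl1 had 5 each. Moe, which encodes the actin linker Moesin, and Ptpmeg2 had 4 each, and CG5004, RapGAP1 and Svil 3 each. The 5 peaks of Rtnl1 had signals from 112 to 1016 and those of dnc from 99.99 to 639. The nearest TSS belonged to a protein-coding gene for 1013 peaks and to a non-coding RNA gene of the general class for 62. Small nucleolar, transfer and small nuclear RNA genes had 3, 2 and 1. Per 1000 annotated genes of an arm, the number of peaks ranged from 54.7 on 2R to 67.2 on X.

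The sequence under the summits was poor in G and C, and more so for stronger peaks. In windows reaching 50 bp to each side of the summit, G and C made up 34.4% ± 9.79 of the bases (SD over 1081 peaks). The windows centred 300 bp farther from the gene held 38.7% ± 10.9, and those 300 bp towards it 47.1% ± 8.89. The summit window held less G and C than the upstream window at 652 peaks (60.3%) and less than the window towards the gene at 878 (81.2%). From the weakest to the strongest band the mean was 36.9%, 35.1%, 34.0% and 31.7%, with SDs of 8.79 to 10.07. Stronger bands also had larger median distances from the TSS, and base composition by band was not divided by distance. The order of the bands was not kept along the whole profile. In windows of 25 bp, the weakest band had its lowest value, 29.8%, in the window 75 bp farther from the gene. Divergent peaks had 32.2%, downstream peaks 38.0%, candidates outside the IDR list 38.4%, and windows 173 bp upstream of 23584 annotated TSSs 37.7%.

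**Figure D3:**
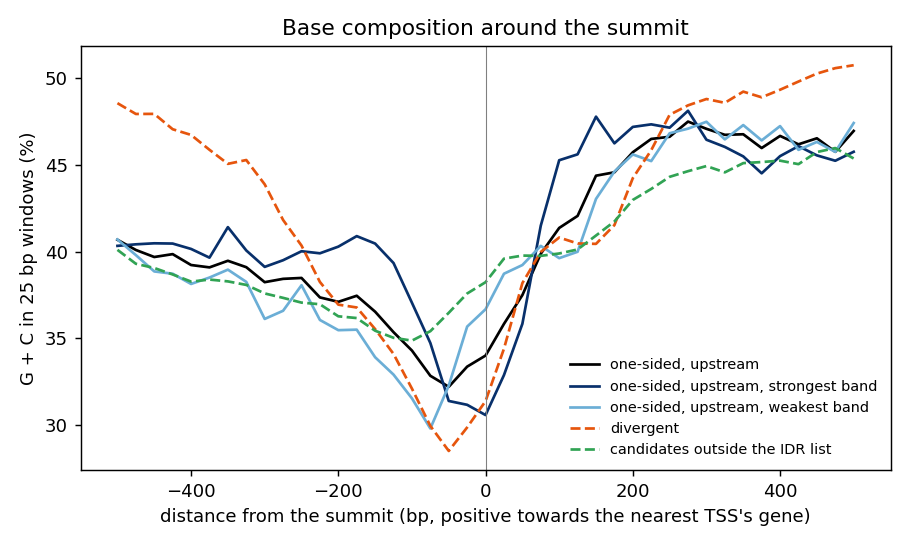
Share of G and C in windows of 25 bp by distance from the summit, positive towards the gene of the nearest TSS, for the one-sided promoter peaks, their strongest and weakest bands by signal, divergent peaks and candidates outside the IDR list. At the summit the strongest band is at 30.5% and the weakest at 36.7%, while divergent peaks rise on both sides and one-sided peaks mainly towards the gene.

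The next comparison asked which sequences were more frequent at the summit than in its own upstream flank. Of 21 motifs searched on both strands, 5 were higher at the summit (23.8%) and 2 lower (9.52%) by exact McNemar tests with adjustment over the motifs. The DRE core ATCGAT was found at 89 summits (8.23%, interval 6.74 to 10.02%) and 33 flanks (3.05%, adjusted exact p = 4.03e-06). The full DRE TATCGATA was found at 27 and 8 (adjusted exact p = 0.00554). The motif 1 core GGTCACAC was found at 17 and 1 (adjusted exact p = 0.000926). Ohler motif 7, a degenerate core promoter consensus, was found at 47 and 12 (adjusted exact p = 5.38e-05). In windows 173 bp upstream of all annotated TSSs these 4 were found in 4.32%, 1.06%, 0.560% and 1.29%. Neither these windows nor the flanks were matched to the summits for distance from the TSS. The DRE core was found at 21.4% of summits within 100 bp of the TSS, 2.86% from there to 300 bp and 4.42% farther out. Whether the shares exceed those at the same distance from other TSSs was not tested.

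TATAAA was found at 224 summits (20.7%) and 175 flanks (16.2%, adjusted exact p = 0.0277), and in 17.6% of windows at all TSSs. These matches lay a median of 196 bp upstream of the TSS, far from the usual place of a TATA box. The summit windows held less G and C than the flanks. The part of that difference in this call is not known. The same limit holds for the other motifs called here, higher or lower, and for the words called below. The GAGA repeat GAGAGAG, a binding sequence of GAGA factor, was found at 21 summits and 54 flanks (adjusted exact p = 0.000926). The GC box GGGCGG was found at 15 summits and 35 flanks (adjusted exact p = 0.0231). The remaining 14 motifs did not pass, among them CAGGTAG, bound by the early embryonic factor Zelda (3 summits and 3 flanks), and CACGTG, an E-box (9 and 11).

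Several of these calls rested on the choices made. Among peaks above the median signal of the IDR list, the DRE core (adjusted exact p = 0.459), the full DRE (0.206), the motif 1 core (0.459) and Ohler motif 7 (0.462) did not pass, leaving 1 motif called higher. The GC box did not pass without replicate 2 (adjusted exact p = 0.0639), with the 250 bp window (0.309), with a divergent limit of 1000 bp (0.107), or with 25 bp (0.0847) or 100 bp (0.130) on either side of the summit. TATAAA did not pass with the 250 bp window (adjusted exact p = 0.423) or 100 bp (0.0901). With 25 bp the full DRE (adjusted exact p = 0.253), the motif 1 core (0.0902) and GAGAGAG (0.135) did not pass. With the window and the divergent limit both at 250 bp, the motif 1 core was as frequent at the summit as in the flank (adjusted exact p = 1) and the full DRE did not pass (0.0795).

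All 8-letter words were then compared in the same way, with both strands merged. Of 1823 words present in at least 10 summit windows, 12 were higher at the summit (0.658%) and 1 lower (0.0549%). The requirement applies to the summit, so words rare or missing there were not tested, whatever their number in the flank. It favours words called higher, so the numbers called higher and lower cannot be set against each other. AACTATCG was found at 27 summits and 2 flanks (adjusted exact p = 0.000575), TTAAAAAA at 89 and 36 (0.000575) and CAACACTG at 27 and 2 (0.000987). ATCGATAG, AATCGATA and CATCGATA overlap the DRE core, which lies within each, and AGTGTGAC overlaps the motif 1 core in its reverse complement. CAGCACTG, which fits within Ohler motif 7, was found at 24 summits and 2 flanks (adjusted exact p = 0.00319).

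The others were ACTATCGA, GGTCACAC itself, and the A- and T-rich words AAATATAT and GAAAAATA. AACAACAA was the only one lower, at 12 summits and 37 flanks (adjusted exact p = 0.0498). In windows at all annotated TSSs AACTATCG, CAACACTG and CAGCACTG were found in 0.454%, 0.496% and 0.513%, against 2.50%, 2.50% and 2.22% of the summits. These windows were not matched to the summits for distance from the TSS. The number called higher was 5 without replicate 2, 10 with a promoter window of 250 bp, and 1 with the window and the divergent limit both at 250 bp.

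Matches to the DRE core lay a median of 58.5 bp upstream of the TSS, those to the motif 1 core 52.5 bp and those to Ohler motif 7 54.0 bp. Their presence at the summit therefore went with summit distance. At least 1 of the 3 was found at 97 of 295 summits within 100 bp of the TSS (32.9%), 33 of 560 from there to 300 bp (5.89%) and 12 of 226 farther out (5.31%). In all, 142 peaks (13.1%) carried 1 of the 3, and 725 (67.1%) carried none of the 5 motifs called higher. The strongest peak with none was that at Ugalt.

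By strand, 0 of 18 motifs and words that are not their own reverse complement passed the test (0% called, exact binomial test), and 1 had an unadjusted p under 0.05. That was Ohler motif 7, which lay on the strand of the gene at 31 of 43 summits with a match on 1 strand (72.1%, exact p = 0.00540, adjusted exact p = 0.0972). It passed without replicate 2 (82.2%, adjusted exact p = 0.000277), with a 250 bp promoter window (76.9%, 0.0192) and with 100 bp on either side of the summit (71.2%, 0.00668).

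The share of summits with the DRE core, Ohler motif 7 or the motif 1 core was lower at higher signal, and the shares with TATAAA at the summit and with an initiator at the TSS were higher. From the weakest band to the strongest, the DRE core was found at 13.3%, 8.89%, 7.04% and 3.70% of summits, and Ohler motif 7 at 6.64%, 5.93%, 2.96% and 1.85%. The motif 1 core was found at 9 summits of the weakest band and 0 of the strongest (interval up to 1.40%). TATAAA was found at 17.0%, 20.7%, 20% and 25.2%, and the intervals of the outer bands overlapped. An initiator was found at 15.9% of the nearest TSSs in the weakest band, 17.8%, 20.4% and then 33.0% in the strongest. The intervals of the outer bands did not overlap for the DRE core (lower bound 9.75% in the weakest, upper bound 6.68% in the strongest) or the initiator (upper bound 20.7%, lower bound 27.6%). No test was made over bands.

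Ranked by replicate 1 alone, the DRE core was found at 11.5% in the weakest band and 4.46% in the strongest, the initiator at 15.2% and 30.9%, and TATAAA at 17.8% and 24.2%. Ranked by replicate 2 alone, the values were 11.2% and 3.08% for the DRE core, 17.3% and 31.9% for the initiator, and 18.5% and 27.7% for TATAAA. Distance from the TSS moved with signal, so the peaks were also divided by distance. Within 100 bp of the TSS the DRE core was found at 23.9% of peaks up to the median signal and 17.4% of those above it, and an initiator at 5.56% and 13.04%. From there to 300 bp the values were 4% and 1.94% for the DRE core and 22.4% and 28.4% for the initiator, and beyond 300 bp 6.31% and 2.61%, and 22.5% and 35.7%. Each pair had the same order as the whole, and their intervals overlapped. TATAAA was found at 10.8% of summits within 100 bp of the TSS, 24.6% from there to 300 bp and 23.9% farther out. It was not divided by distance and signal together. The annotation under the summit also moved with signal. Summits in an intron of the same gene made up 18.8% of the weakest band and 27.0% of the strongest. At such summits the DRE core was found at 3.38% and an initiator at 29.1%, against 10.7% and 19.8% for intergenic summits. The bands were not divided by annotation.

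**Figure D4:**
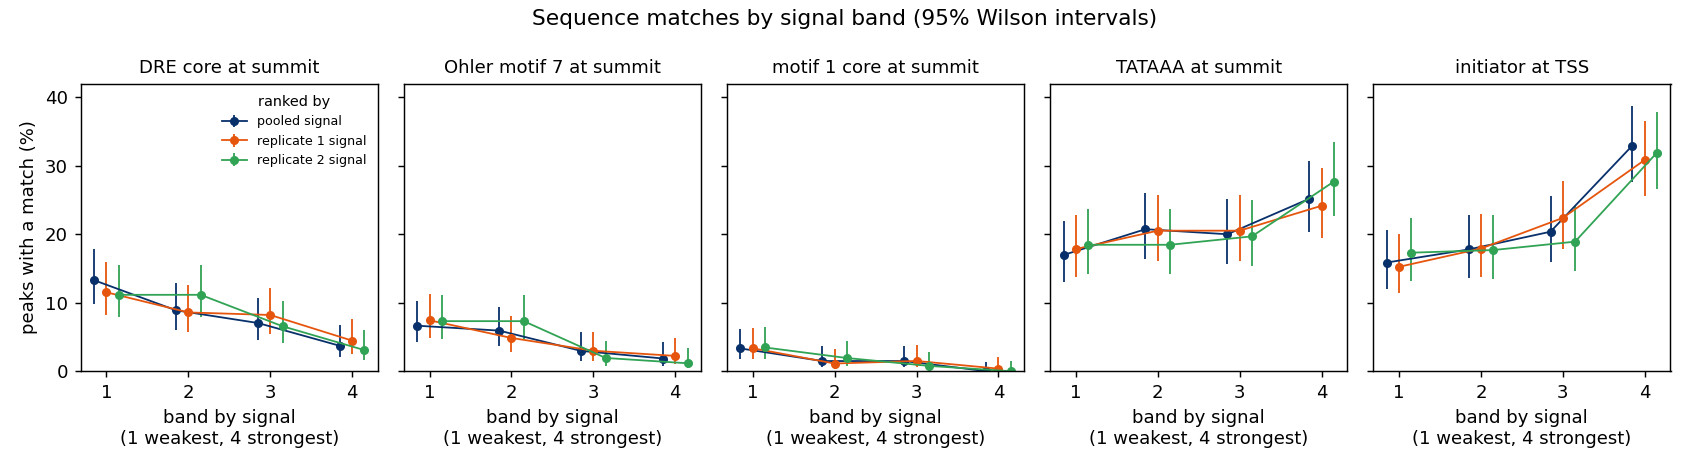
Share of one-sided promoter peaks with each sequence match, by band of signal from weakest (1) to strongest (4), with 95% Wilson intervals. Colours show the ranking by pooled signal, by replicate 1 and by replicate 2. The DRE core and Ohler motif 7 are lower in the strongest band than in the weakest, and the initiator is higher (33.0% against 15.9% by pooled signal).

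The last comparison asked how the promoters under one-sided peaks differed in their core elements from those under the other peaks. Elements were read at the nearest TSS, which for most peaks lies outside the summit window. Of 15 comparisons, of 5 elements with 3 other sets, 7 passed (46.7%, 2-sided Fisher's exact tests, adjusted over the 15). The initiator, searched as TCANT with its A within 5 bp of the TSS, was found at 235 one-sided promoters (21.7%, interval 19.4 to 24.3%). It was found at 9.62% of divergent promoters (odds ratio 2.61, adjusted exact p = 6.35e-12), 12.6% of downstream ones (odds ratio 1.93, adjusted exact p = 0.00596) and 17.7% of the candidates outside the IDR list (odds ratio 1.29, adjusted exact p = 0.0109). At all annotated TSSs it was found at 15.8%.

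The full DRE lying within 150 bp upstream of the TSS was less frequent, at 50 one-sided promoters (4.63%) against 11.5% of divergent ones (odds ratio 0.373, adjusted exact p = 1.66e-07) and 6.66% of the candidates (odds ratio 0.680, adjusted exact p = 0.0374). At all annotated TSSs it was found at 4.81%. The motif 1 core, from 100 bp upstream to 50 bp downstream of the TSS, was found at 5.64% against 9.04% of divergent promoters (odds ratio 0.602, adjusted exact p = 0.0109) and 4.64% of all TSSs. Both elements were searched on both strands. At a divergent pair the stretch searched can also reach the promoter of the other gene, which was not accounted for. A TATA box, TATAAA beginning 40 to 20 bp upstream, was found at 29 promoters (2.68%) against 4.94% of the candidates (odds ratio 0.531, adjusted exact p = 0.00596) and 6.10% of all TSSs. The TCT initiator, read here as CTTT within 2 bp of the TSS and known from ribosomal protein genes, was found at 22 promoters (2.04%) and passed in none of its 3 comparisons, with 2.11%, 2.60% and 2.20% in the other sets.

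Divergent summits lay closer to the TSS, at a median of 93.0 bp. Within 100 bp an initiator was found at 8.47% of one-sided and 7.56% of divergent promoters, and from there to 300 bp at 144 of 560 and 45 of 375. The full DRE was found at 9.49% and 12.1% within 100 bp, and at 3.75% and 10.7% from there to 300 bp. For the motif 1 core the order within 100 bp was opposite to the whole, at 9.83% of one-sided and 7.34% of divergent promoters. From there to 300 bp it was found at 3.75% and 11.5%. Only 14 divergent summits lay farther out. Against the candidates and the downstream promoters, the initiator had the opposite order to the whole within 100 bp, with overlapping intervals. It was found there at 25 of 295 one-sided promoters, 124 of 953 candidates and 9.90% of downstream promoters. From there to 300 bp the values were 25.7%, 18.8% and 10.5%, and beyond 300 bp 29.2%, 21.8% and 17.8%. The splits by distance were not tested. Without replicate 1 the initiator (odds ratio 1.12, adjusted exact p = 0.377) and the full DRE (0.732, 0.147) did not pass against the candidates. With protein-coding TSSs only, the initiator did not pass against the candidates (odds ratio 1.20, adjusted exact p = 0.0877). With a 250 bp promoter window 2 of the 7 passed, the initiator (odds ratio 2.24, adjusted exact p = 7.35e-07) and the full DRE (0.526, 0.00329) against divergent promoters, and with the divergent limit also at 250 bp the initiator alone did (2.26, 2.46e-05).

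**Figure D5:**
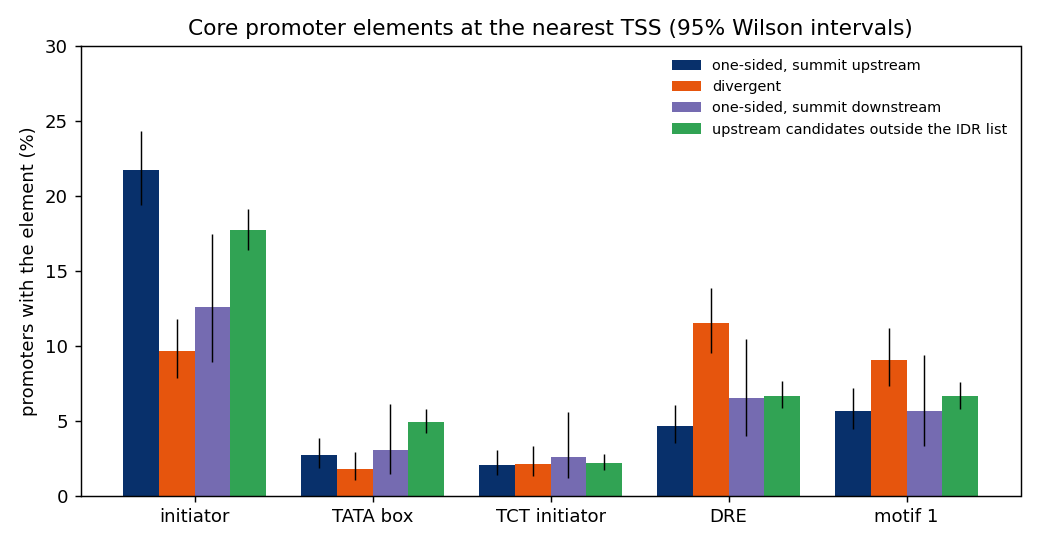
Share of nearest TSSs with each core promoter element for the one-sided upstream peaks, divergent peaks, downstream peaks and upstream candidates outside the IDR list, with 95% Wilson intervals. The initiator stands at 21.7% for one-sided peaks and 9.62% for divergent ones, and the DRE at 4.63% and 11.5%.

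The summits of one-sided peaks were also compared with those of the other sets. Of 63 comparisons, of 21 motifs with 3 sets, 1 passed (1.59%, 2-sided Fisher's exact tests). GAGAGAG was found at 21 one-sided summits (1.94%) and 2 divergent summits (0.235%, odds ratio 8.42, adjusted exact p = 0.0266). It did not pass when replicate 1 was left out (odds ratio 4.98, adjusted exact p = 0.0646), with a 250 bp window (13.1, 0.0793) or above the median signal (4.75, 0.262).

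Of 21 lists of genes counted, that of cytosolic ribosomal proteins had the highest share. Of all annotated genes 5.53% had a one-sided peak, and of protein-coding genes 6.73%. A one-sided peak was nearest to 29 of 87 cytosolic ribosomal protein genes (33.3%, interval 24.3 to 43.8%). Their median signal was 186, with RpL23A (573 pooled, 460 in replicate 1 and 117 in replicate 2) and RpL24 (355, 262 and 97.1) the highest. RpL24 also had the summit nearest to its TSS, at 1 bp. In replicate 1 its summit lay 10 bp upstream, and in replicate 2 it lay downstream of the TSS (-28 bp, counted upstream). Of these 87 genes 67 had an IDR promoter summit of some kind. The share of all annotated genes with such a summit is not given here, so this count has no background beside it. Translation factors had 8 of 53 (15.1%), led by eEF1gamma (485) and eIF3c (333). Mitochondrial ribosomal proteins had 4 of 73 (5.48%), led by mRpL41 and mRpL4 (215), and aminoacyl-tRNA synthetases 2 of 35 (5.71%), beta-PheRS (140.0) and AlaRS (105).

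Cell cycle and replication genes had 11 of 44 (25%, interval 14.6 to 39.4%), with Dp, the partner of E2F, at 425 and CycE at 282. Signalling genes had 9 of 49 (18.4%), with the highest signal at spi, an epidermal growth factor receptor ligand gene (548), and sgg, which encodes the Drosophila glycogen synthase kinase 3 (432). Polycomb and Trithorax group genes had 5 of 32 (interval 6.86 to 31.8%), with ph-p first and pho, which encodes a DNA-binding Polycomb protein, at 125. Heat shock protein genes had 5 of 25 (interval 8.86 to 39.1%). They were led by the small heat shock protein gene Hsp27 (729.9, 471 in replicate 1 and 260.0 in replicate 2) and the Hsp90 gene Hsp83 (408). Muscle protein genes had 3 of 21 (interval 4.98 to 34.6%), with the titin-like sls (218) and the tropomyosin gene Tm1 (185). The interval of the muscle list includes the 5.53% of all annotated genes.

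Other lists lay near or below the share of all genes. RNA polymerase II, TFII and Mediator genes had 3 of 59, led by Polr2F (327) and Taf4 (253), and patterning transcription factors 2 of 36, bcd (169) and Dfd (100.2). Proteasome subunits had 1 of 48, Rpn11 (141), and oxidative phosphorylation genes 2 of 78, the complex I genes ND-B22 (134) and ND-13B (114). Insulator and architectural protein genes had 0 of 24 (interval up to 13.8%), and nuclear pore and transport genes 0 of 27 (interval up to 12.5%). An IDR promoter summit of some kind was found at 13 of the 24 and 9 of the 27. These counts too have no share of all genes beside them. Cuticle protein, chemosensory receptor and replication-dependent histone genes had 0 of 124, 0 of 186 and 0 of 111. Transfer RNA, small nucleolar RNA and microRNA genes had 2 of 290, 3 of 269 and 1 of 260, with tRNA:Gln-TTG-2-1 (149.9), tRNA:Thr-AGT-1-4 (122), snoRNA:abba-a (183), snoRNA:Or-ACA6 (159) and mir-2491 (120). The lists were not tested.

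Among the strongest peaks with a called motif, Atf3, which encodes a stress-related transcription factor, carried a GC box (860), Alg3, an enzyme gene of protein glycosylation, a full DRE (745), and CG1907 a GAGA repeat (708). Ohler motif 7 was strongest at jigr1 (420) and the motif 1 core at eEF1alpha1 (276), which encodes the main translation elongation factor. The summit signal of eEF1alpha1 was 221 in replicate 1 and 55.5 in replicate 2, where it ranked 586 and 2196.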

How the data were processed

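ChIP-seq of CG10654-GFP was deposited as narrowPeak lists for 2 biological replicates of whole embryos. Per the file descriptions deposited with each sample, the authors called candidates per replicate and on the pooled reads against a control library, which was not analysed here, and derived the IDR list from them. The signal value of each peak (field 7) is the authors' own, deposited with no stated scale. For aligner and peak caller, names and versions were not stated. The depth in reads is unknown.

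Lists on dm6 were read with the Release 6 genome and the Ensembl release 115 annotation (BDGP6.54, 18164 genes without transposable elements). The dm3 lists were not used. Sequence windows reached 50 bp to each side of the summit, and flanks were centred 300 bp away. Words needed 10 summit windows. Tests were exact McNemar, Fisher and binomial tests, 2-sided, with Benjamini-Hochberg adjustment at 0.05, checked on simulated data. They treat peaks as independent, which neighbouring peaks of 1 gene are not. Python 3.11.15 with SciPy 1.17.1, NumPy 2.4.6 and pandas 2.3.3 was used. Genes named are the nearest to the 12 strongest peaks, the 2 strongest of each list, the strongest with each called motif and with none, and those at the limits. Others, such as genes with 3 or more peaks, the unmatched peak at by and the genes whose sequences are shown, were named after their values were seen. The peaks, lists and tests were chosen with earlier results of these data known. The alternatives tried were other promoter windows, alone and with the divergent limit (added after seeing the data), TSS sets, divergent limits, summit windows, flanks, matching distances, the stronger part of the IDR list and each replicate left out. The microRNA list was matched by name after its first definition found no gene.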

Additional observations from a re-analysis of the deposited data

How the results depend on the processing

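No paired analysis was possible because both replicates belong to the same group. With a 250 bp promoter window there were 765 one-sided peaks at a median distance of 125 bp. With the divergent limit also at 250 bp (a joint change added after seeing the data) former divergent peaks entered, giving 1035 at 117 bp. Above the median IDR signal the peaks numbered 573 with a median of 184 bp, and with a divergent limit of 1000 bp the median was 183 bp. The odds ratio of being matched in both replicates was 1.30 against divergent peaks with summits within 50 bp. Against downstream peaks it was 0.583 within 200 bp, 0.984 among the strongest candidates of each replicate (added after seeing the data) and 0 above the median IDR signal. The odds ratio of lying above the median signal was 0.609 against divergent peaks with the joint change, 1.21 among peaks above that median (then read against their own median), and 1.497 against downstream peaks with protein-coding TSSs only.

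Motifs called higher at the summit, 5 as reported, numbered 2 with the joint change, 1 above the median signal, 3 with 25 bp on either side and 8 against the flank towards the gene. Motifs called lower, 2 as reported, numbered 1 with the 250 bp window, 1 with the joint change, 1 with the 1000 bp limit, 0 with 25 bp, 1 with 100 bp and 4 against the flank towards the gene. They ranged from 1 to 2 with 1 replicate left out. Words called higher, 12 as reported, numbered 1 with the joint change, 19 with the 1000 bp limit, 0 with 25 bp, 43 with 100 bp, 614 against the flank towards the gene and 5 on arms 3L, 3R, 4 and X. They ranged from 5 to 16 with 1 replicate left out, 5 being without replicate 2. Words called lower, 1 as reported, numbered 3 with 100 bp and 11 against the flank towards the gene. They numbered 0 with the 250 bp window, the joint change, protein-coding TSSs, peaks above the median signal, 25 bp, those 4 arms, and with either replicate left out. The flank towards the gene held more G and C than the upstream flank (47.1% against 38.7%).

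Strand calls, 0 as reported, numbered 1 with the 250 bp window, 1 with the joint change, 1 with 25 bp and 2 with 100 bp, and 0 to 1 with 1 replicate left out. Summit motifs called against divergent peaks, 1 as reported, numbered 0 with the 250 bp window, 0 above the median signal, 2 with the 1000 bp limit, 0 with 25 bp and 7 with 100 bp, and 1 to 2 with 1 replicate left out. Against downstream peaks they numbered 1 with 100 bp. Against the candidates outside the IDR list they numbered 1 above the median signal, 1 with 100 bp, and 0 to 2 with 1 replicate left out. Core elements called, 3, 1 and 3 as reported, numbered 1 against divergent peaks with the joint change, and 0 against downstream peaks and 0 against the candidates with the 250 bp window and with the joint change. Against the candidates they ranged from 1 to 4 with 1 replicate left out, 1 being without replicate 1. The GAGA odds ratio against divergent peaks has no value with the joint change or 25 bp, where no divergent summit held a match. The causes of these changes were not tested.

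Without replicate 1 there were 1032 one-sided peaks, of which 858 lay within 100 bp of a reported one, and without replicate 2 there were 1108, of which 978 did. The files give no read depth, so precision is known only as counting error over peaks, and with 1 group no contrast between conditions could be made.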
